A study of Mus musculus with 2 samples.

Results

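Pericytes and smooth muscle cells are the mural cells of blood vessels, and 10 genes that mark them were followed through droplet-based single-cell RNA-seq of mouse lung adenocarcinoma: Pdgfrb, Notch3, Cspg4, Rgs5, Cox4i2, Higd1b, Acta2, Tagln, Myh11 and Postn. All 10 were chosen by name from the 17790 genes of the count table, and all 10 were present in it. Lung tumour tissue of C57BL/6 mice was dissociated, and magnetic beads against the leukocyte antigen CD45 parted the cells into a CD45-negative and a CD45-positive fraction. Each fraction gave 1 library, the CD45-negative one with 3957 and the CD45-positive one with 11432 cells. Both libraries come from the same kind of tumour tissue, and no tumour-free lung was analysed here. The cell names carry the label LucOS, which the sources used here do not explain, and the number of mice, the tumour model and its stage are not given in them.

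Pericytes sit on capillaries within the basement membrane that they share with endothelial cells, and smooth muscle cells wrap arteries, larger veins and airways. Endothelial cells recruit pericytes by secreting PDGF-B, which binds the receptor encoded by Pdgfrb on the mural cell, and they signal to them through Notch ligands and the receptor encoded by Notch3. Smooth muscle cells contract through actin, myosin and their regulators, of which Acta2, Myh11 and Tagln are the usual markers.

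The authors deposited counts of unique molecular identifiers (UMI), each of which stands for 1 captured RNA molecule, and assigned every cell to 1 of 7 classes, none of which is named for mural cells. Levels are given as CPM, the UMI of a gene per 1000000 UMI summed over a set of cells, and shares as the percentage of cells with at least 1 UMI. Ratios and shares carry 95% intervals that cover counting error only, and with 1 library per fraction there is no replicate check of any difference. The class deposited as Endothelial held 1249 CD45-negative cells with a median of 6808 UMI and 2172 CD45-positive cells with a median of 3591 UMI. Of a list of endothelial markers chosen here, 12 of 12 genes were at least 2-fold above the other classes in either library. Among all genes tested, 25.2% of 14140 stood so far above in CD45-negative cells. For CD45-positive cells the share was 18.2% of 14387 genes. In the class deposited as Fibroblast, the mesothelial marker Msln was found in 99.7% of the 356 CD45-negative cells and the fibroblast marker Pdgfra in 2. The 8 mesothelial markers summed to 11540 CPM there. The 12 fibroblast markers summed to 4655 CPM, with a UMI in 100% of the cells, beside 765 CPM in CD45-negative Endothelial cells. The class thus held RNA of both lists, but the fibroblast sum may rest on few genes. Over the whole CD45-negative library 1 of the 12, Dcn, had 339 of their 638 CPM. The libraries shared 57 cell barcodes.

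RefSeq sequences upstream of the transcription start were at hand for 5 of the 10 genes, Notch3, Cspg4, Rgs5, Acta2 and Postn, in build GRCm38.p6. The promoters of Notch3, Postn and Rgs5 are shown because Notch3 and Postn were found in the same cells below while Rgs5 was not. Each is the 250 bases before the start, read 5′ to 3′ on the strand of the gene, and capitals mark the TATA box word TATAAA. Notch3 lies on the minus strand at chr17:32166891-32167140, Postn on the plus strand at chr3:54360857-54361106 and Rgs5 on the plus strand at chr1:169655251-169655500.
Notch3: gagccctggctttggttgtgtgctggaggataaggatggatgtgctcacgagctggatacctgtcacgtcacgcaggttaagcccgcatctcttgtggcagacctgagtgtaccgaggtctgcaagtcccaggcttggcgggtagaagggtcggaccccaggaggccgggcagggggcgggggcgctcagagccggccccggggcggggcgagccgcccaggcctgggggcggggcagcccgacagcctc
Postn: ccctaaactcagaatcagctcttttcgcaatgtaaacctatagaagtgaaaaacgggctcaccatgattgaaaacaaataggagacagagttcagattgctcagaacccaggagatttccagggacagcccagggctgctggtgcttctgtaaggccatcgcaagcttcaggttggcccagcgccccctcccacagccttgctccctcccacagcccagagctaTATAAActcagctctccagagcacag
Rgs5: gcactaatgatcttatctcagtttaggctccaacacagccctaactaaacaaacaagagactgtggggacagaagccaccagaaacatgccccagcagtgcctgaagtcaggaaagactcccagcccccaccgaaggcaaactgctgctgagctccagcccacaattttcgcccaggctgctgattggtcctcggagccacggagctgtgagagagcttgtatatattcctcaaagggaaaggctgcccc

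Words were searched on both strands of the 6 windows of these 5 genes, Postn having 2 starts. TATAAA was found in the Postn window alone, 26 bases before the start, and stands in 12.4% of the 32841 promoters of the table. TGGGAA, the core word bound by the Notch partner RBPJ, was found in the Acta2 window alone and in 21.6% of all promoters. The CArG box, the word bound by serum response factor, was in 0 of the 6 windows and in 1.47% of all promoters when no mismatch was allowed. With 1 mismatch allowed, 2 such words lay in the Acta2 window and 2 in the Cspg4 window, and 18.6% of all promoters held at least 1. G and C made up 68.8% of the Notch3 window, 53.6% of the Rgs5 window and 52% of the Postn window shown. These are matches of letters and were not tied to the measured levels.

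All 10 genes were highest in the class deposited as Endothelial, in both libraries. In the CD45-negative library the Endothelial class was at least 2-fold above the other classes together for 10 of 10 genes, where 25.2% of the 14140 genes with at least 20 UMI were. The CD45-positive count was 10 of 10, beside 18.2% of 14387 genes. The median of the 10 genes on the log2 scale was 5.07 in the CD45-negative library, and that of all genes tested was 0.375. For each gene and library the interval of the ratio to the next class lay above 1, and the closest was Acta2 in the CD45-positive library, 1.92-fold (1.14 to 3.47) above the Fibroblast class.

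Pdgfrb (chr18:61045150-61085061, plus strand of GRCm38), the PDGF-B receptor, had 61.5 CPM in the CD45-negative and 42.2 CPM in the CD45-positive library within the Endothelial class. That was 41.4-fold (30.7 to 57.2) above the other CD45-negative classes and 30.04-fold above the other CD45-positive classes. Notch3 (chr17:32120820-32166852, minus strand), the Notch receptor of mural cells, had 41.3 CPM in the CD45-negative and 25.7 CPM in the CD45-positive library, which was 32.8-fold above the other CD45-negative and 29.9-fold above the other CD45-positive classes. Cspg4 (chr9:56865033-56899870, plus strand), which encodes the proteoglycan NG2 of the pericyte surface, had few molecules, 83 CD45-negative and 70 CD45-positive UMI, and was 26.1-fold above the other CD45-negative and 27.1-fold above the other CD45-positive classes. These receptors and the proteoglycan were thus rare transcripts with 86.4% to 92.9% of all their UMI in the Endothelial class.

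Rgs5 (chr1:169655501-169695813, plus strand), a regulator of G protein signalling used as a pericyte marker, had 11.9 CPM in the CD45-negative and 6.42 CPM in the CD45-positive library in the Endothelial class. Cox4i2 (chr2:152754173-152765037, plus strand), a subunit isoform of cytochrome c oxidase, had 317 CPM in the CD45-negative and 227 CPM in the CD45-positive library and was found in 44.6% of CD45-negative and 29.3% of CD45-positive Endothelial cells. Higd1b (chr11:102835849-102838040, plus strand), a small protein of the hypoxia-inducible domain family, had 113 CPM in the CD45-negative and 96.4 CPM in the CD45-positive library. Higd1b had no UMI in the 108 Immune cells of the CD45-negative library, which allows a share of cells with a UMI of up to 2.78% and sets no limit on cells that express the gene below detection.

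Of the contractile genes, Acta2 (chr19:34241090-34255590, minus strand), smooth muscle actin, had 79.7 CPM in the CD45-negative and 31.1 CPM in the CD45-positive library in the Endothelial class. Tagln (chr9:45929619-45936058, minus strand), an actin-binding protein, had 70.7 CPM in the CD45-negative and 26.0 CPM in the CD45-positive library. Myh11 (chr16:14194535-14291372, minus strand), smooth muscle myosin heavy chain, had 13.9 CPM in the CD45-negative and 10.1 CPM in the CD45-positive library, and 95.8% of its CD45-negative UMI lay in the Endothelial class. Postn (chr3:54361109-54391037, plus strand), a secreted matrix protein, had 166 CPM in the CD45-negative and 98.6 CPM in the CD45-positive library. These levels are not scaled for transcript length, so each gene is compared only with itself.

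**Figure D1:**
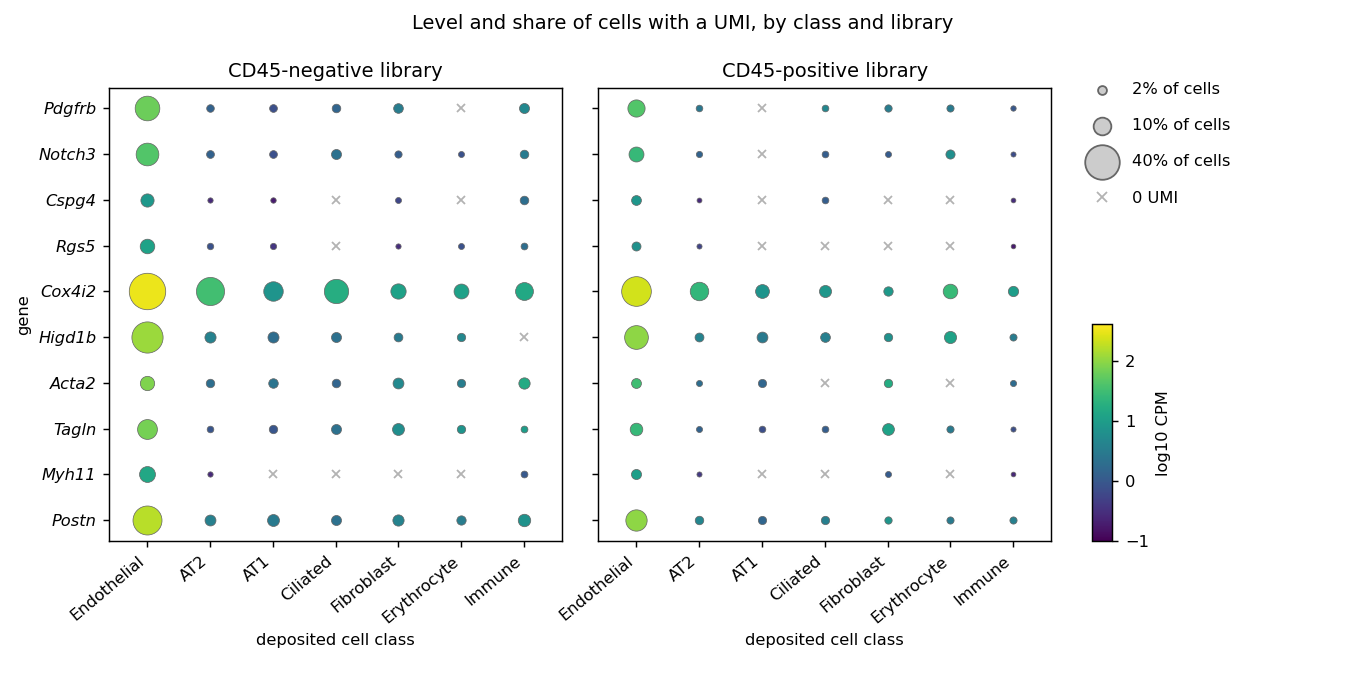
Rows are the 10 genes and columns the deposited classes, with the CD45-negative library left and the CD45-positive library right; dot area is the share of cells with a UMI, colour is log10 CPM and a cross marks 0 UMI. The Endothelial column holds the highest level of every gene in both libraries, and Cox4i2 is the gene found most widely outside it, at 32.3 CPM in CD45-negative AT2 cells.

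Shares of cells have to be read against the background of free RNA and depth. In the CD45-negative library, Pdgfrb was found in 20.02% of Endothelial cells (median 6808 UMI) and in 1.31% of AT2 cells, alveolar type 2 epithelium (median 8143 UMI). After each cell was thinned to 2000 UMI the Pdgfrb shares were 7.85% of Endothelial and 0.417% of AT2 cells. For the other genes the AT2 share ran from 0.298% for Cspg4 and Myh11 to 3.58% for Higd1b, with Cox4i2 the exception.

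Cox4i2 was found in 26.3% of the CD45-negative AT2 cells, with 599 UMI or 32.3 CPM, which was 15.5% of the Cox4i2 UMI of that library. AT2 cells were 1.87-fold (1.25 to 2.95) above Ciliated cells, the class with the next lower level, at 17.2 CPM, while the classes below Ciliated did not differ from their neighbours beyond counting error. In the CD45-positive library the Erythrocyte class had 26.9 CPM, 1.15-fold (0.515 to 2.23) the level of AT2 cells. CD45-positive AT2 cells had 23.5 CPM, 2.43-fold (1.999 to 2.96) above Immune cells at 9.66 CPM. Thinned to 2000 UMI, the CD45-negative shares were 26.7% of Endothelial and 6.20% of AT2 cells. Its widely used paralog Cox4i1, the main isoform of the same subunit, had 855 CPM in Endothelial and 996 CPM in the other cells of that library, a ratio of 0.858 (0.838 to 0.879).

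Outside the Endothelial class the contractile genes had isolated cells with many molecules. In the CD45-negative Immune class Tagln had 10 UMI, all in 1 of 108 cells, and Acta2 had 16 UMI in 4 cells, 13 of them in 1 cell. In the CD45-positive Fibroblast class Acta2 had 15 UMI in 3 of 171 cells, 13 of them in 1 cell, and Tagln had 11 UMI in 7 cells. Levels in those classes thus rest on few cells.

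Which of the genes go together was read from the 1249 Endothelial cells of the CD45-negative library. For each gene, cells with a UMI of at least 3 of the other 9 genes were set against cells with none of the other 9, so that the gene described took no part in choosing the cells. By this measure 9 of 10 genes stood past 2-fold in the cells that held the others, and Rgs5 did not. The background came from the same kind of split made with all 10 genes: 6.82% of 10747 genes stood past 2-fold in the cells with at least 3 genes.

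Postn had 523 CPM in cells with at least 3 others and 8.76 CPM in cells with none, a ratio of 59.7 (41.1 to 90.2), and was found in 80.5% of cells with at least 3 others and 4.77% of cells with none. Pdgfrb had 184 CPM in cells with at least 3 others and 3.53 CPM in cells with none, a ratio of 52.1 (28.9 to 105). Notch3 had 121 CPM in cells with at least 3 others and 2.27 CPM in cells with none, a ratio of 53.4 (25.7 to 134). For Cspg4 the cells with none of the others held 1 UMI, and the ratio of 70.9 has an interval of 12.3 to 2837. The cells with none of the others that still held the gene were 22 for Postn, 11 for Pdgfrb, 7 for Notch3 and 1 for Cspg4, so these 4 genes were mostly found in company.

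Cox4i2 had 960 CPM in cells with at least 3 others and 46.2 CPM in cells with none, a ratio of 20.8 (17.9 to 24.3). It still had a UMI in 22.3% of the cells with none of the others (median 6257 UMI), where 26.3% of AT2 cells (median 8143 UMI) had one. Higd1b had 312 CPM in cells with at least 3 others and 14.6 CPM in cells with none, a ratio of 21.3 (16.0 to 29.1). The contractile genes had ratios of 11.9 (8.71 to 16.6) for Acta2, 10.7 (5.62 to 23.0) for Myh11 and 3.19 (2.52 to 4.05) for Tagln. Their place among the 10 genes was not the same in the CD45-positive library, where Myh11 had 49.3 (20.1 to 157) and Acta2 32.1 (20.97 to 51.1), above Higd1b at 30.5 and Cox4i2 at 24.7.

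Rgs5 had 12.9 CPM in cells with at least 3 others and 12.5 CPM in cells with none, a ratio of 1.03 (0.649 to 1.63). It was found in 7.72% of the cells with at least 3 others and in 6.397% of the cells with none. CD45-positive cells with at least 3 others had 8 UMI of Rgs5 and those with none 22 UMI, a ratio of 1.33 (0.513 to 3.11), while the other 9 genes had ratios from 11.3 for Tagln to 113 for Cspg4. Depth moved with the split: over the 10 genes the median was 7838 to 8151 UMI in cells with at least 3 others and 6124 to 6257 UMI in cells with none. With every cell thinned to 2000 UMI the ratio of Rgs5 was 1.53 (0.548 to 3.73) and those of the other 9 ran from 4.34 for Tagln to 46.6 for Pdgfrb.

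**Figure D2:**
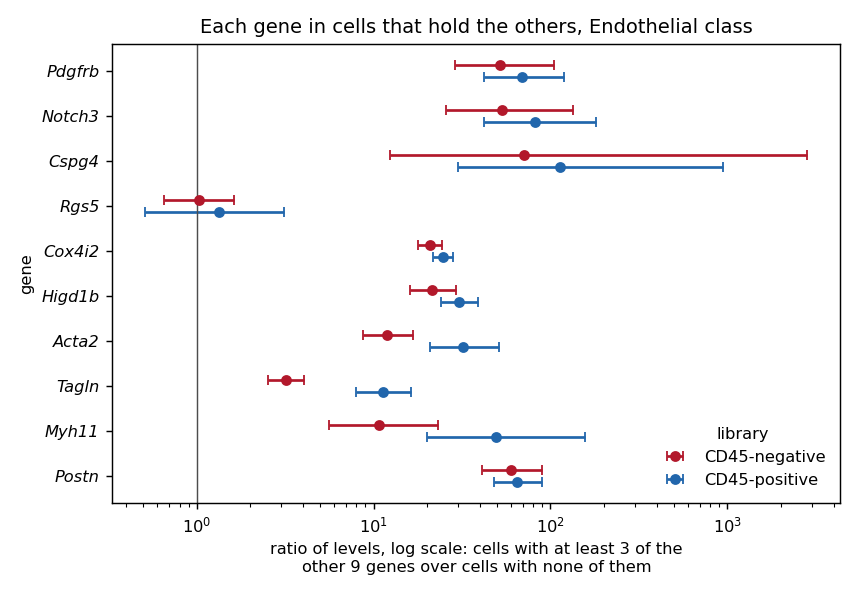
Points are, for each gene, the level in Endothelial class cells with at least 3 of the other 9 genes over the level in cells with none of them, on a log axis, and bars are 95% counting intervals. The intervals of Rgs5 span 1 in both libraries, and those of the other 9 genes lie above 2.

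Pairs of genes were counted in the same cells. Of the 250 cells with Pdgfrb, 160 held Notch3, which is 64.0% (57.7 to 70.0), and 5.11% of the cells without Pdgfrb held it. Postn was found in 210 of the cells with Pdgfrb, 84.0%, and in 14.0% of the cells without it. Among Pdgfrb, Notch3, Cspg4, Cox4i2, Higd1b and Postn all 30 ordered pairs had a ratio of shares of at least 2, from 2.12 to 18.6, and from 3.04 to 13.8 after thinning to 2000 UMI.

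Acta2 and Tagln were also found together. Of the 79 cells with Acta2, 33 held Tagln, 41.8% (30.8 to 53.4), and 10.8% of the cells without Acta2 held it. Of the 18 pairs in which a contractile gene was looked for in cells with or without 1 of the 6, 10 had a ratio of at least 2. The lowest was Acta2, in 6.64% of cells with Cox4i2 and in 6.07% of cells without it, while Acta2 was in 15.6% of cells with Notch3 and in 4.43% of cells without it. Myh11 had ratios of 3.20 to 5.90 with all 6 genes, and was in 25.6% of cells with Notch3 and in 4.34% of cells without it. Tagln in cells with or without Myh11 had a ratio of 1.58. With Rgs5 as the gene that splits the cells the ratios were 0.757 to 1.59, and 0 of 9 reached 2: Notch3 was in 20.7% of the 82 cells with Rgs5 and in 16.6% of the cells without it.

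**Figure D3:**
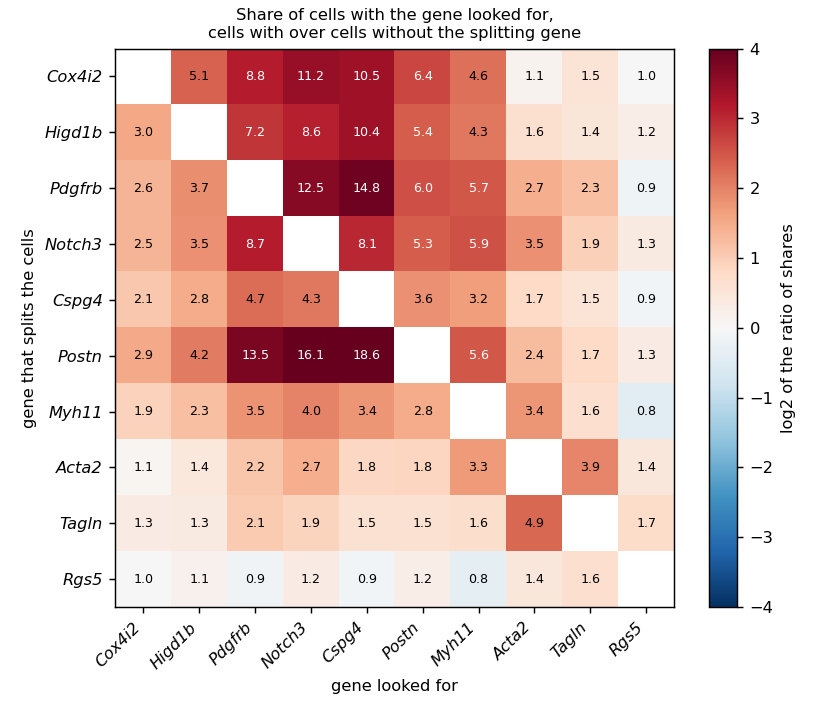
Each square gives the share of cells with the gene of the column among cells with the gene of the row, over its share among cells without the gene of the row, in the 1249 Endothelial class cells of the CD45-negative library; colour is log2 of that ratio, capped at 4 either way. The 6 genes at the upper left are red throughout, Acta2 and Tagln pair with each other, and the row and column of Rgs5 are pale.

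The genes most alike in pattern were ranked by Pearson's r of log-scaled levels across the same 1249 cells and 11221 genes. The cells share a library and differ in depth, and r is given as a description. For Cox4i2 they were Postn (0.75), Ifitm1 (0.74), Gucy1b3 (0.73), Ndufa4l2 (0.73) and Gucy1a3 (0.72). For Pdgfrb they were Postn (0.74), Gucy1a3 (0.70), Gucy1b3 (0.67), Notch3 (0.65) and Cox4i2 (0.65), and for Notch3 the same list with Pdgfrb in place of itself, from 0.69 for Postn to 0.62 for Cox4i2. Postn was most like Gucy1a3 (0.77), a subunit of the nitric oxide receptor guanylate cyclase, as is Gucy1b3.

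The contractile genes had other neighbours. Acta2 was most like Tagln (0.58), followed by Htra1 (0.43), Tpm2 (0.43), Prrx1 (0.42) and Ctgf (0.40), and Tagln most like Acta2, followed by Ctgf (0.42), Palld (0.39), Mgp (0.39) and Apoe (0.38). Rgs5 had r between -0.02 and 0.02 with each of the other 9 genes. The genes most like Rgs5, looked up after its values were seen, were Slc6a2 (0.34), Prss23 (0.30) and Vwf (0.24), the last of which encodes von Willebrand factor of endothelial cells.

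Within the Endothelial class, cells with several mural genes also held the transcripts of endothelial cells. Mural genes per cell were counted in that class only, and 1219 of its 1249 CD45-negative cells held Pecam1. A high share with Pecam1 thus follows in part from the class. Of the 348 CD45-negative Endothelial cells with at least 3 of the 10 genes, which was 27.9% of the class, 338 had a UMI of Pecam1, the endothelial adhesion molecule CD31: 97.1% (94.8 to 98.6). Of the 439 cells with none of the 10 genes 437 did, or 99.5%. In the other classes of that library Pecam1 was found in 23.0% to 30.6% of cells, among them 28.0% of AT2 cells. The levels ran the same way: Pecam1 had 867 CPM (835 to 900) in cells with at least 3 genes, 1104 CPM (1067 to 1142) in cells with none and 55.0 CPM in AT2 cells. With each cell thinned to 2000 UMI, Pecam1 was found in 81.3% of the cells with at least 3 genes, 88.8% of the cells with none and 9.54% of AT2 cells.

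Along the number of mural genes per cell, Pecam1 had 1104 CPM at 0 genes, 1040 CPM at 1, 1039 CPM at 2, 953 CPM at 3 or 4 and 806 CPM (765 to 847) at 5 or more. Cdh5, the cadherin of endothelial junctions, had 1121 CPM at 0 genes, 1208 CPM at 2 and 1005 CPM at 5 or more, and Cldn5, a claudin of endothelial tight junctions, had 4727 CPM at 0 genes and 3182 CPM at 5 or more. The 187 cells with 5 or more genes were the deepest, with a median of 9024 UMI, and the 439 cells with none had a median of 6124 UMI. In the CD45-positive library Pecam1 had 591 CPM in the 263 cells with at least 3 genes and 583 CPM in the 1257 cells with none, and it was found in 83.3% of cells with at least 3 genes and 79.5% of cells with none, beside 14.7% of AT2 cells.

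**Figure D4:**
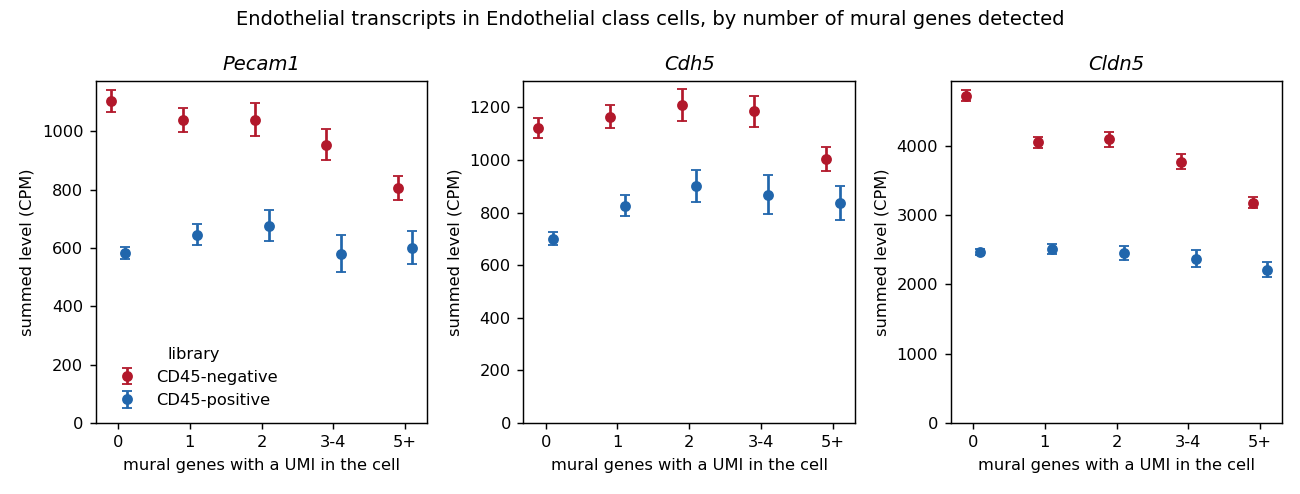
Summed levels in CPM of Pecam1, Cdh5 and Cldn5 in Endothelial class cells, by the number of the 10 mural genes with a UMI in the cell; bars are 95% Poisson intervals and colours are the libraries. In the CD45-negative library Pecam1 is at 806 CPM at 5 or more genes and at 1104 CPM at 0 genes, and the CD45-positive library runs lower at every number.

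Co-detection with Pecam1 was taken gene by gene in the same 1249 cells, of which 1219 held Pecam1. For Pdgfrb, 237 cells held both and 13 held Pdgfrb without Pecam1, so Pecam1 was in 94.8% (91.3 to 97.2) of cells with Pdgfrb and in 98.3% of cells without it. For Notch3, 201 cells held both and 10 the gene alone, or 95.3%. For Cspg4, 63 held both and 3 the gene alone, and for Rgs5, 79 held both and 3 the gene alone. Cox4i2 had 545 cells with both and 12 alone, or 97.8%, and Higd1b had 400 with both and 6 alone, or 98.5%. The receptors, the mitochondrial genes and Rgs5 were thus found with Pecam1 in at least 94.8% of their cells.

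Postn had 339 cells with both and 11 alone, or 96.9%, and Myh11 had 95 with both and 4 alone, or 96.0%. Tagln had 146 cells with both and 13 alone, 91.8% (86.4 to 95.6), where 98.4% of the cells without Tagln held Pecam1. Acta2 had 68 cells with both and 11 alone, 86.1% (76.5 to 92.8), where 98.4% of the cells without Acta2 held Pecam1. The intervals of Acta2, Tagln, Pdgfrb and Notch3 lay below the share in cells without the gene, for Notch3 91.5 to 97.7 beside 98.1%. The intervals of the other genes held that share. Depth moved with co-detection: the cells with both Pdgfrb and Pecam1 had a median of 8269 UMI, those with Pdgfrb alone 5985 UMI and those with Pecam1 alone 6652.5 UMI. Thinned to 2000 UMI, Pecam1 was found in 76.5% of cells with Pdgfrb and in 85.0% of cells without it, and in 66.7% of cells with Acta2 and in 85.0% of cells without it.

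The 30 Endothelial cells without a Pecam1 UMI were set against the 1219 with one. Among the Pecam1-negative cells 8 of 10 genes stood at 2-fold or more, where 14.1% of 11352 genes did. Acta2 stood highest with 1326 CPM in Pecam1-negative and 50.1 CPM in Pecam1-positive cells, a ratio of 26.5 (22.9 to 30.7). This rests on few cells: 11 of the 30 held Acta2, and the 3 highest, with 171, 49 and 31 UMI, held 82.6% of its 304 UMI there. Tagln had a ratio of 8.30 (6.74 to 10.2) and Pdgfrb of 2.34 (1.59 to 3.34), and the intervals of Cspg4 (2.69) and Rgs5 (2.67) began at 0.851 and 1.05. Other genes rest on fewer cells still: 5 of the 7 Rgs5 UMI and 7 of the 11 Myh11 UMI lay in 1 cell each, and the 5 Cspg4 UMI in 3 cells. Without the Pecam1-negative cell that held most of the gene, 3 of 10 genes stood past 2-fold, Acta2 at 11.9, Tagln at 5.56 and Notch3 at 2.07, while Pdgfrb had 1.95, Myh11 1.37 and Rgs5 0.784. Split by Cdh5 in place of Pecam1, Rgs5 had a ratio of 0.749. Cox4i2 at 1.85 and Higd1b at 1.36 were below 2-fold.

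Other cell types' markers moved with this split, in which 14.1% of all genes were at least 2-fold higher. The fibroblast markers were at least 2-fold higher for 12 of 12 genes, with a sum of 7779 CPM in Pecam1-negative and 598 CPM in Pecam1-positive cells, and the erythroid markers for 5 of 6 genes, with 21868 CPM in Pecam1-negative and 3907 CPM in Pecam1-positive cells. The endothelial markers were at least 2-fold lower for 12 of 12 genes, where 23.6% of all genes were, and 1 of the 12 is Pecam1, which made the split. Their part in the levels of the mural genes was not tested.

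Acta2 and Tagln were concentrated in few cells. Of the 786 Acta2 UMI in CD45-negative Endothelial cells, 17 cells with 5 or more UMI held 700, or 89.1%, up to 171 in a cell, and 46 of the 79 cells with Acta2 had 1 UMI. For Tagln, 25 cells with 5 or more UMI held 71.6% and the highest had 81. Myh11 had 1 UMI in 86 of its 99 cells. For Cox4i2, 192 cells had 5 or more UMI, at most 43, and the top 10 cells held 11.4% of its UMI, where they held 80.4% for Acta2. Among CD45-positive Endothelial cells, 8 with 5 or more UMI held 77.9% of the Acta2 UMI.

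The 17 cells with at least 5 Acta2 UMI, a set chosen after its values were seen, had a median of 6489 UMI, and they were set beside 300 cells with no Acta2 UMI and at least 3 of the other 9 genes, with a median of 7850 UMI. Pecam1 had 520 CPM in the 17 cells and 896 CPM in the 300, and was found in 64.7% of the 17 and 99.0% of the 300. Cnn1, calponin of smooth muscle, had 395 CPM in the 17 cells, with its 60 UMI in 4 of them, and 0 UMI in the 300, which allows up to 1.10 CPM there. Tpm2, a tropomyosin, had 850 CPM in the 17 cells and 25.2 CPM in the 300, and Myl9, a myosin light chain, had 619 CPM in the 17 and 52.3 CPM in the 300. The 300 were chosen for holding at least 3 of the other mural genes and the 17 were not, so levels of those genes follow in part from the choice: Pdgfrb was at 204 CPM in the 17 cells and 182 CPM in the 300, Higd1b at 59.3 CPM in the 17 and 292 CPM in the 300, and Cox4i2 at 342 CPM in the 17 and 835 CPM in the 300. Rgs5 had 0 UMI in the 17 cells, which allows up to 19.8 CPM, and 14.99 CPM in the 300.

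**Figure D5:**
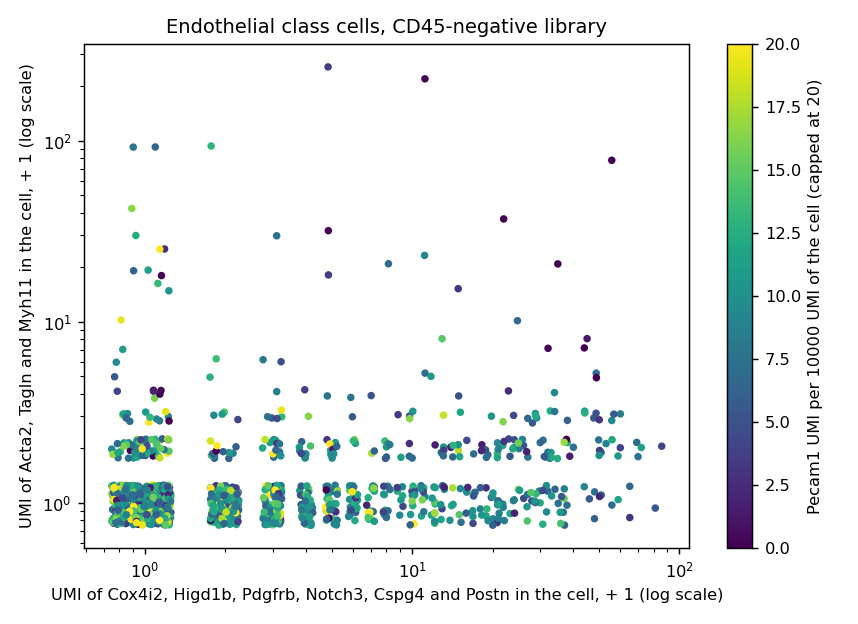
Each point is 1 of the 1249 Endothelial class cells of the CD45-negative library, with the summed UMI of the 6 genes found together on the x axis and of the 3 contractile genes on the y axis, both plus 1 and on log scales with a small jitter; colour is Pecam1 per 10000 UMI. Most cells along the x axis have few contractile UMI, and the cells highest on the y axis lie at low and high x alike.

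Of the 82 cells with Rgs5, 26 held at least 3 of the other genes and 56 fewer, by a limit that itself sets their levels of the other genes apart. Pecam1 had 1007 CPM in the 26 cells, at a median of 9102 UMI per cell, and 998 CPM in the 56 cells, at a median of 7425 UMI. The 56 cells held 1 UMI of Pdgfrb and 0 UMI of Notch3 and Cspg4, which allows up to 6.58 CPM of either.

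Genes of wider lists were compared between the 348 cells with at least 3 mural genes and the 439 with none, in the CD45-negative Endothelial class. The median log2 ratio of all genes tested was 0.0304. Of the pericyte list, 24 of 26 genes were in the table and 19 reached 20 UMI: 14 were at least 2-fold higher and 0 lower, with a median of 3.37 on the log2 scale, beside 6.82% of all genes higher and 1.34% lower. Gucy1a3 had 372 CPM in cells with at least 3 genes and 11.2 CPM in cells with none, a ratio of 33.1 (23.6 to 48.1), and Gucy1b3 a ratio of 24.5. Ndufa4l2, a hypoxia-induced mitochondrial protein, had 306 CPM in cells with at least 3 genes and 13.2 CPM in cells with none, a ratio of 23.1. Pde5a, the phosphodiesterase that degrades cGMP, had a ratio of 10.3 and the transcription factor Ebf1 of 4.85.

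Not all of that list moved so. Mcam, the adhesion molecule CD146, had a ratio of 1.21 (1.10 to 1.33), the connexin Gja4 of 0.905 and the endothelin receptor Ednrb of 0.575 (0.511 to 0.646). These are also transcripts of endothelial cells. Vtn, vitronectin, with a ratio of 78.5, was picked out after its values were seen. Of 17 pericyte-list genes that reached 20 UMI in the CD45-positive library, 14 were past 2-fold upward and 0 downward, beside 6.84% upward and 4.56% downward of 10923 genes.

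Of the smooth muscle list, 17 of 21 genes reached 20 UMI and 10 were at least 2-fold higher, 0 lower, with a median of 2.70. Des, desmin, had a ratio of 11.5, Myl9 of 7.01 and Flna, filamin A, of 2.09. Mylk (1.69), Tpm1 (1.44), Smtn (1.40), Crip1 (1.28) and Mustn1 (1.20) stayed below 2-fold. Des stands on both the pericyte and the smooth muscle list. By its sum the wider smooth muscle list did not centre on the Endothelial class. It had 1940 CPM there and 16354 CPM in the Fibroblast class of the CD45-negative library. Over all cells of that library Crip1 alone had 1969 of the list's 2777 CPM, so the sum over all cells mostly follows that gene. By gene, 12 of 18 tested were at least 2-fold above the other CD45-negative classes together and 1 was below, beside 25.2% of all genes above.

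Of 13 paralogs of the mural genes 10 reached 20 UMI. At least 2-fold higher were 4 of them, Actg2, Rgs4, Myh10 and Rgs2, and 0 were lower, beside 6.82% of all genes higher. Rgs4 also stands on the pericyte list and Actg2 on the smooth muscle list. Cox4i1 had 867 CPM in cells with at least 3 mural genes and 854 CPM in cells with none, a ratio of 1.02 (0.962 to 1.07), where its isoform Cox4i2 had 20.8 in the comparison that left it out. Higd1a had a ratio of 1.07 (0.959 to 1.20), where Higd1b had 21.3, and Tagln2 of 0.786 (0.743 to 0.832), where Tagln had 3.19. Rgs4, a relative of Rgs5, had a ratio of 5.57 (2.92 to 11.7) and Rgs2 of 2.58, where Rgs5 had 1.03. Of the non-muscle myosins, Myh9 had a ratio of 1.18 and Myh10 of 3.40 (2.46 to 4.78). Actg2, the enteric smooth muscle actin, had 39 UMI in cells with at least 3 genes and 2 UMI in cells with none, a ratio of 18.4 (4.76 to 157). The sources used here do not say how reads shared between the near-identical actin genes were assigned. Tgfbi, the paralog of Postn, had 5 UMI in cells with at least 3 genes and 10 UMI in cells with none, too few for the comparison.

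Ligands of the PDGF and Notch receptors lay on both sides of the split. Pdgfb, the ligand of Pdgfrb, had 135 CPM in cells with at least 3 mural genes and 135 CPM in cells with none, and the interval of the ratio was 0.872 to 1.15. Pdgfa had a ratio of 2.56 (2.08 to 3.16), Pdgfd of 0.644 and the receptor Pdgfra, also a fibroblast marker here, of 4.38 (3.06 to 6.43). Thus 2 of the 4 PDGF genes tested were at least 2-fold higher, beside 6.82% of all genes. Of the Notch list 2 of 12 genes were, Heyl (10.7), a Notch target known from mural cells, and Notch2 (3.77), both named after their values were seen. Heyl also stands on the pericyte list. In the CD45-positive library Heyl had a ratio of 24.1 and Notch2 of 1.41.

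The Notch ligands Jag1 (1.12), Jag2 (1.10), Dll1 (0.869) and Dll4 (0.743, 0.612 to 0.901) and the targets Hes1 (1.05) and Hey1 (0.960) were all within 2-fold. The receptors Notch1 and Notch4 had ratios of 1.23 each. The Notch list thus had a median of 0.158 on the log2 scale, beside 0.0304 for all genes.

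Markers of other cell types were read on the same cells, where 6.82% of all genes were at least 2-fold higher and 1.34% lower. Of the endothelial markers 0 of 12 were 2-fold higher or lower, with a sum of 13263 CPM in cells with at least 3 mural genes and 16033 CPM in cells with none. The fibroblast markers were at least 2-fold higher for 10 of the 10 genes that reached 20 UMI, with a sum of 1327 CPM in cells with at least 3 mural genes and 246 CPM in cells with none, while Pi16 and Lum were at 0 in the cells with at least 3 genes. Pdgfra had 53.5 CPM in cells with at least 3 mural genes and 12.2 CPM in cells with none. Inmt, a methyltransferase of lung fibroblasts, had 524 CPM in cells with at least 3 and 145 CPM in cells with none. The erythroid markers were at least 2-fold higher for 4 of 6 genes, with 6218 CPM in cells with at least 3 and 2768 CPM in cells with none. The median cell ran the other way, with 783 CPM in cells with at least 3 and 967 CPM in cells with none. So did the 90th percentile, 1606 CPM in cells with at least 3 and 1769 CPM in cells with none. The higher sum thus lay in the few cells above it. The AT2 markers summed to 4869 CPM in cells with at least 3 and 4889 CPM in cells with none, and the leukocyte markers to 91.5 CPM in cells with at least 3 and 90.1 CPM in cells with none, with 0 genes of either past 2-fold. The mesothelial markers were past 2-fold for 2 of 6 genes, with 212 CPM in cells with at least 3 and 71.6 CPM in cells with none. The part of fibroblast, mesothelial and erythroid RNA in these levels was not tested.

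Between the fractions, 3 of 10 genes were past 2-fold toward the CD45-negative library, beside 20.2% of 15422 genes. Over all cells Tagln had 18.6 CPM in the CD45-negative and 5.88 CPM in the CD45-positive library, a ratio of 3.17 (2.76 to 3.65). Acta2 had 21.4 CPM in the CD45-negative library and 7.62 CPM in the CD45-positive one, 2.80 (2.48 to 3.18). Rgs5 had 3.38 CPM in the CD45-negative library and 1.41 CPM in the CD45-positive one, 2.39 (1.77 to 3.25). By the mean of per-cell CPM the count was 8 of 10, for which no share of all genes is given here. The other 7 had ratios from 1.33 for Cspg4 to 1.96 for Postn. In such sums fewer mural cells and less RNA per cell cannot be told apart, and the Endothelial class was 31.6% of CD45-negative and 19.0% of CD45-positive cells.

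Within the Endothelial class 2 of 10 genes were past 2-fold in that direction, beside 4.63% of 12717 genes. Tagln had a ratio of 2.72 (2.34 to 3.16) and Acta2 of 2.56 (2.23 to 2.95), and the lowest were Higd1b at 1.17 (1.07 to 1.28) and Cspg4 at 1.09 (0.781 to 1.51). The intervals of Tagln and Acta2 treat molecules as independent, but most lay in few cells. Without the cells with 5 or more UMI of the gene, Acta2 had 86 CD45-negative and 62 CD45-positive UMI, a ratio of 1.28 (0.916 to 1.81). Tagln then had a ratio of 1.62 (1.28 to 2.06). That limit is not scaled for depth, and genes spread over more cells fell too. Cox4i2, at 317 CD45-negative and 227 CD45-positive CPM over all Endothelial cells, came to a ratio of 0.856 (0.772 to 0.948). The step thus cannot part few cells from depth. Leukocyte RNA moved with this comparison: the 8 leukocyte markers summed to 85.8 CPM in CD45-negative and 2290 CPM in CD45-positive Endothelial cells, and Ptprc, which encodes CD45, was in 1.12% of CD45-negative and 31.9% of CD45-positive Endothelial cells. The fibroblast markers were past 2-fold toward the CD45-negative library for 8 of 12 genes, with 765 CPM in CD45-negative and 414 CPM in CD45-positive Endothelial cells, the erythroid markers for 5 of 6, with 4325 CPM in CD45-negative and 1150 CPM in CD45-positive cells, and the mesothelial markers for 4 of 7. On the log2 scale the median was 0.613 for the 10 mural genes, 0.594 for the 12 endothelial markers and 0.241 for all genes tested. The part of these in the levels of the mural genes was not tested. Cells without a UMI of the leukocyte markers numbered 817 CD45-negative and 178 CD45-positive, and in them 4 of 10 genes were past 2-fold, beside 10.3% of 10768 genes. There Tagln had a ratio of 3.32 (2.05 to 5.73) and Acta2 of 2.98 (2.02 to 4.59), while the intervals of Cspg4 (4.72) and Rgs5 (2.41) held 1. Pdgfrb was at 1.08, Cox4i2 at 1.08 and Higd1b at 0.991.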

How the data were processed

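Single cells of mouse lung adenocarcinoma were measured by a droplet 3' assay in 2 libraries, 1 of CD45-negative and 1 of CD45-positive cells, grouped as the labels name the fractions. Channels were loaded with 6000 cells each, and reads of 98 bases were aligned to mm10 and reduced to UMI by Cell Ranger 1.1.0, per the series' design text. At 11432 cells the CD45-positive library exceeds that load, so it may pool several channels, which the sources used here do not state. The authors deposited raw UMI counts per gene and cell, and a table that gives each cell a library and a class. The sources used here do not say how the classes were made. Since the assay reads the 3' end, counts say nothing about transcript length or isoforms.

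The deposited counts were used as they are: 40873786 CD45-negative and 47477407 CD45-positive UMI. All 15389 deposited cells and their classes were kept, and no doublet caller was run. Counts were summed over cells to CPM, with exact Poisson intervals for levels, Clopper-Pearson intervals for shares and conditional binomial intervals for ratios, at 95%. Genes with at least 20 UMI in both groups together were compared, and a ratio of at least 2 either way was counted. For values on the log2 scale and for limits on undetected genes, a group at 0 UMI was set to 3 counts. The counts of genes past 2-fold used the ratio without that floor, so a group at 0 UMI could be called. With 1 library per group no p-value was made. Shares were repeated with cells thinned to 2000 and 1000 UMI, which dropped 0 cells. Correlations used ln(1 + UMI per 10000) over genes found in at least 20 cells.

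Genes named were the 10 mural genes, set partner genes and paralogs, up to 8 genes of the pericyte and smooth muscle lists and 4 of other lists by UMI, and the 5 genes most alike. The genes, lists and comparisons were chosen with earlier results of these data known. Promoter sequences were RefSeq's in GRCm38.p6, and gene positions came from the GRCm38 annotation. The code for ratios and intervals was run on simulated counts drawn independently, as the intervals assume. That run cannot show how the intervals hold for genes whose molecules lie in few cells. Scripts used scipy 1.17.1 for intervals, numpy 2.4.6 and pandas 2.3.3 for sums, and matplotlib 3.10.9 for plots, under Python 3.11.15.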

Additional observations from a re-analysis of the deposited data

How the results depend on the processing

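Of 60 summary values recomputed under other settings, 48 stayed within the limits set for them and 12 moved. The number of mural genes past 2-fold toward the CD45-negative library, 3 as reported, was 8 with the mean of per-cell CPM, 8 at 1.5-fold and 0 at 4-fold. The share of all genes at these other settings is not given here, so the counts have no background beside them. Pecam1 was found in 97.1% of cells with at least 3 mural genes as reported, in 73.9% with cells thinned to 2000 UMI and in 47.8% at 1000 UMI, and any of Pecam1, Cdh5 and Cldn5 in 98.9%. In the thinned counts the cells with at least 3 mural genes were chosen anew and numbered 161 at 2000 and 69 at 1000 UMI, against 348 as reported, and with the original 348 cells the share at 2000 UMI was 81.3%. Among Pecam1-negative cells 8 mural genes were past 2-fold as reported and 3 without the cell that held most UMI of the gene, an alternative chosen after seeing the data. At 1.5-fold in place of 2-fold, 1 gene each of the pericyte, PDGF, endothelial and leukocyte lists was lower in cells with at least 3 mural genes and 2 AT2 markers were higher, against 0 in each as reported. Of 270 values for single genes 175 stayed within their counting interval, 93 moved and 2 reversed, both of Rgs5 in Pecam1-negative cells: 2.67 as reported, it was 0.749 with Cdh5 in place of Pecam1 and 0.784 without the 1 cell with most Rgs5. The cause of the first was not tested.

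Leaving out cells above the 95th percentile of UMI of their library removed 1 Endothelial cell of the CD45-negative library. Leaving out the 63 above that percentile of the class, an alternative chosen after seeing the data like that on cells without leukocyte markers, left Pecam1 in 98.1% of cells with at least 3 mural genes. Cspg4, Rgs5 and Myh11 are limited by depth, with 83, 117 and 137 UMI in CD45-negative Endothelial cells. No paired analysis was possible because each fraction has 1 library.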
